A study of Mus musculus with 8 samples.

Results

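The genes described here carry glucose through glycolysis to pyruvate and lactate, open the pentose phosphate pathway or control pyruvate oxidation in the mitochondrion. Others recharge ATP through creatine, or belong to the hypoxia response that drives many of these genes. The 33 genes were listed by name, with no threshold on their values, and all 33 were found by Ensembl identifier among the 46517 genes of the table. Each of the 33 reached 10 normalized counts in 4 libraries or more, the filter on low values, and so was among the 14139 genes tested. The RNA came from osteoclasts, the multinucleated cells that dissolve bone, grown from the femoral marrow of mice 6 to 8 weeks old that lacked both copies of *Elmo1* (*Elmo1*-/-) or kept an intact copy (*Elmo1*+/-, the controls). *Elmo1* encodes an engulfment adaptor that helps DOCK proteins activate the GTPase Rac. Every culture received 10% medium conditioned by L929 cells, a source of M-CSF, and GST-RANKL at 50 ng/ml over 7 days, and each of the 8 libraries (4 per genotype) came from 1 mouse. The labels call the deletion global. By the methods controls were littermates of like age and sex and animals of both sexes were used, while the strain and the sex of each of these mice were not given. Control titles read wild-type where the genotype labels, followed here, read *Elmo1*+/-.

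Glycolysis turns glucose into pyruvate in the cytosol with a small yield of ATP, and lactate dehydrogenase then regenerates the NAD+ that the pathway uses. Osteoclasts also burn pyruvate in abundant mitochondria, and their brain-type creatine kinase passes phosphate from creatine phosphate to ADP where ATP is spent, including near the proton pumps that acidify bone. Most steps are run by enzymes made from several genes (isozymes), and the hypoxia-inducible factor HIF-1 raises many of them through the short DNA word RCGTG, where R is A or G.

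The sequences shown first belong to the 4 members whose counts differed most between sets of libraries in either direction (*Ckb*, *Ldhb*, *Slc2a6* and *Slc16a3*) and to *Ldha*, the partner of *Ldhb*. Each is the 250 bases before a transcription start in RefSeq, on GRCm38.p6, and capitals mark ACGTG or GCGTG on either strand (CACGT or CACGC when read on the other). *Ldha* has 2 listed starts.
Ckb, chr12:111672339-111672588, minus strand: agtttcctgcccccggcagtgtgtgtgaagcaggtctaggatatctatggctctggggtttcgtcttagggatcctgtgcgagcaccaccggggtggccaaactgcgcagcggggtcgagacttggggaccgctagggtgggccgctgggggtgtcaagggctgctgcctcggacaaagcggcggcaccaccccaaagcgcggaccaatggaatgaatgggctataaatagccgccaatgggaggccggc
Ldhb, chr6:142507958-142508207, minus strand: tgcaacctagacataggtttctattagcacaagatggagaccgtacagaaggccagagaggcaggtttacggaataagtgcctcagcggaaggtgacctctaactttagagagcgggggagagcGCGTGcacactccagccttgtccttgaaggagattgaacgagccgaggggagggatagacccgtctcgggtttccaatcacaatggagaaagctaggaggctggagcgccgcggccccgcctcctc
Slc2a6, chr2:27027999-27028248, minus strand: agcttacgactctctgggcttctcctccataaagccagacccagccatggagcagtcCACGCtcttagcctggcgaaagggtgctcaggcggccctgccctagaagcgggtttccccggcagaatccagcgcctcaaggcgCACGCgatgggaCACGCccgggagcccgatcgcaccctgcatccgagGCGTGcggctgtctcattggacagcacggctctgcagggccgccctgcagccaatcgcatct
Slc16a3, chr11:120948817-120949066, plus strand: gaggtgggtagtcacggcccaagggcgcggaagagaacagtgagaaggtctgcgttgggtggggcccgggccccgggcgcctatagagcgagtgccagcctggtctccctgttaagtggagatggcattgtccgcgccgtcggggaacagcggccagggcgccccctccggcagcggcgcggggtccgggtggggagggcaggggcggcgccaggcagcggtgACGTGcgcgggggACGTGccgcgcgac
Ldha, chr7:46845554-46845803, plus strand: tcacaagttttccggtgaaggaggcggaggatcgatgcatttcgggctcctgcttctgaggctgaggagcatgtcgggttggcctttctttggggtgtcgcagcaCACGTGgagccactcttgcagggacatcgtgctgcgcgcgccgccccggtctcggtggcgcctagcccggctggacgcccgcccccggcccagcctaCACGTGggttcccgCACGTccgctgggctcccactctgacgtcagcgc
Ldha, chr7:46846832-46847081, plus strand: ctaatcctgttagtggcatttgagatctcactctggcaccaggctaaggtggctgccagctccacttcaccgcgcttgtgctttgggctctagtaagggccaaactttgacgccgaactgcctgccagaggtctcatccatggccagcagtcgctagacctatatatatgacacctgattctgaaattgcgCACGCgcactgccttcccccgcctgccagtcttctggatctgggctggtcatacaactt
The window of *Ckb* held neither word, that of *Ldhb* held 1 GCGTG, that of *Slc2a6* held 4 GCGTG and that of *Slc16a3* held 2 ACGTG. The first *Ldha* window held 5 ACGTG matches, since each of its 2 CACGTG words, which read alike on both strands, counts as 2. RefSeq gave 47 such windows for 32 of the 33 members. At least 1 of the words stood in 36 of the 47 windows (76.6%), against 54.67% of the 12691 windows of genes tested. Among the 32851 windows of all genes it was 38.6%. Windows of 1 gene can overlap, as in *Aldoa*, *Eno1* and *Pfkm*, and so count a word more than once. By gene, 28 of the 32 members held at least 1 of the words. That count was not made for other genes. Genes with more windows can hold a word more easily, so the count cannot be set beside the shares of windows. The members were listed by name and include genes that HIF-1 raises, and the difference between the shares of windows was not tested. ACGTG alone was in 38.3% of member windows and 21.31% of those of genes tested, GCGTG in 53.19% and 43.65%, and CACGTG in 12.77% and 8.234%. Mean GC content was 59.95% in member windows and 59.54% in those of genes tested. A match describes letters in the window and says nothing of binding.

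The libraries held between 20905502 and 40846651 reads on genes. *Elmo1* itself lay between 1423 and 1769 normalized counts in the 4 *Elmo1*+/- libraries and between 274 and 316 in the 4 *Elmo1*-/- libraries, with a log2 difference of -2.44 ± 0.09 (SE, limma adjusted p = 8.40e-06). All 12 osteoclast markers were expressed in every library, among them *Ctsk*, the bone-degrading cathepsin K. The first principal component of the 8 libraries held 62.3% of the variance. Between *Elmo1*+/- libraries the chi-square of reads per gene was 8.33 for 1 and 2 and 10.7 for 3 and 4. It was 58.7 to 74.9 between libraries 1 or 2 and libraries 3 or 4. *Elmo1*-/- libraries 3 and 4 gave 8.00, and *Elmo1*-/- library 1 gave 173 and 170 against them. *Elmo1*-/- library 2 was not close to the other libraries of its set: the chi-square of reads per gene between it and *Elmo1*-/- library 1 was 57.4, against 52.3 and 48.9 for *Elmo1*-/- libraries 3 and 4, and its deviations correlated with those of *Elmo1*+/- libraries 1 and 2 at 0.0259 and 0.156 across genes, which are not independent replicates. The numbers come from the titles. By the methods each of 2 experiments held 2 mice of a genotype, but no source used here ties a mouse to an experiment or says what the numbers stand for. The comparison of numbers was made because a split of libraries 1 and 2 from libraries 3 and 4 was noticed in these data. Its tests describe these 8 libraries. Log2 differences by number are libraries 3 and 4 minus libraries 1 and 2.

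Per kilobase of exon the most abundant members were *Aldoa*, the main aldolase, with a mean over 8 libraries of 23919 normalized counts per kb, *Ckb*, brain-type creatine kinase, with 21194, and *Pkm*, pyruvate kinase, with 19195. Their order was not fixed, because *Ckb* ranged from 7075 to 33392 per kb between libraries while *Aldoa* ranged from 21714 to 26534. Per kb of the longest protein-coding transcript these 3 were again the first, with 44950.0, 41683 and 39471. *Ldha*, which makes lactate from pyruvate, followed with 11996 per kb and *Tpi1*, triosephosphate isomerase, with 7592. At the other end stood *Slc2a3*, a high-affinity glucose transporter, with 20.1 per kb and *Eno2*, the neuronal enolase, with 21.1, and their ranges overlapped. The 33 genes together took 1.22% to 1.41% of the reads in each library.

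No member passed the test by genotype. By limma 0 of 33 members passed an adjusted p of 0.05, where 1 of the 14139 genes tested (0.00707%) did, and 0 members had an unadjusted p under 0.05. The quasi-likelihood test of edgeR on whole reads called 0 members and found 0 at an unadjusted p under 0.05, and DESeq2 called 0 and found 1. Among all 14139 genes tested limma found 133 at that level, edgeR 142 and DESeq2 137. Within libraries 1 and 2 alone limma called 0 members, with 3 at an unadjusted p under 0.05 beside 361 of all genes tested. Within libraries 3 and 4 it called 0, with 2 beside 419. With the replicate number as a block, or the set as a term, limma called 0 members. Each of these fits found 3 members at an unadjusted p under 0.05, *Gapdh*, *Pgam1* and *Bnip3*, beside 389 and 411 of all genes tested. The levels of these 3 are uncertain, because they share sequence with other genes. In no member did the genotypes fail to overlap, against 0.941% of genes tested.

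The log2 differences, *Elmo1*-/- minus *Elmo1*+/-, ran from -0.38 for *Ckb* to 0.07 for *Ldhb*, with a median of -0.05 over the members and -0.003 over all genes tested. *Ckb* had means of 65406 in *Elmo1*+/- and 57309 in *Elmo1*-/- libraries, and by edgeR, which models the reads themselves, its difference was -0.19 and the lowest was -0.20, for *Bnip3*. Leaving out single libraries moved the lowest value between -0.73 and -0.23 and the highest between 0.15 and 0.37. The differences were negative for 26 members and positive for 7, but for 18 and 15 without *Elmo1*+/- library 1, 22 and 11 without *Elmo1*-/- library 3, 21 and 12 without *Elmo1*-/- library 4, and 20 and 13 in libraries 3 and 4 alone. The smallest p belonged to *Pgam1*, phosphoglycerate mutase, at -0.14 ± 0.06 (SE). *Pgam1* counts were 2632, 2469, 2730.2 and 2787 in *Elmo1*+/- libraries 1 to 4, and 2407, 2332, 2485 and 2426 in *Elmo1*-/- libraries 1 to 4, and the highest *Elmo1*-/- library exceeded the lowest *Elmo1*+/- library. In the 4 pairs of the same number *Pgam1*, *Pfkp* and *Gapdh* were lower in the *Elmo1*-/- library each time. How many of all genes tested were so was not counted, and the pattern was not tested. *Pgam1* and *Gapdh* share much of their sequence with other genes, so their levels are uncertain. *Bnip3*, a mitophagy receptor induced by HIF-1, had a log2 difference of -0.19 ± 0.09 (SE), and *Vegfa*, the angiogenic growth factor, -0.19 ± 0.15 (SE). *Hk1*, the mitochondria-bound hexokinase, had -0.10 ± 0.09 (SE), *Pfkp*, platelet-type phosphofructokinase, -0.09 ± 0.08 (SE), and *Gapdh*, which oxidizes glyceraldehyde 3-phosphate, -0.19 ± 0.18 (SE). The limma adjusted p of each of these 6 was 1.00.

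**Figure D1:**
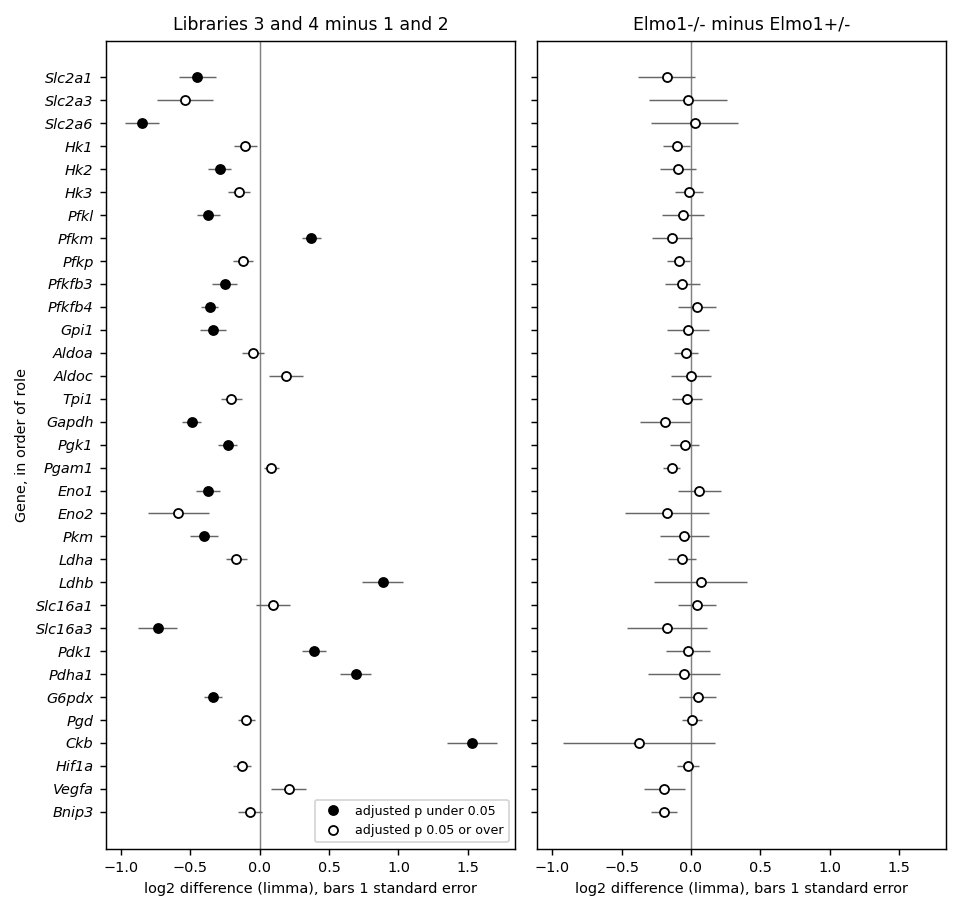
Log2 differences (x axis, limma, log2(normalized count + 1)) of the 33 genes (y axis, by role), with bars of 1 standard error, for libraries 3 and 4 minus 1 and 2 of both genotypes (left) and *Elmo1*-/- minus *Elmo1*+/- (right), 4 libraries a side. Filled points, adjusted p under 0.05, number 18 on the left, from -0.85 (*Slc2a6*) to 1.53 (*Ckb*), and 0 on the right, where *Ckb* has the widest bar.

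Between the sets of libraries many members did change. In libraries 3 and 4 of both genotypes 18 of 33 members differed from libraries 1 and 2 by limma, 5 higher and 13 lower, beside 32.6% of all genes tested, 17.0% higher and 15.6% lower. The 5 higher members were *Ckb*, *Ldhb*, *Pdha1*, *Pdk1* and *Pfkm*. The 13 lower members ran along the pathway from glucose uptake (*Slc2a1*, *Slc2a6*) to pyruvate kinase (*Pkm*) and lactate export (*Slc16a3*), and included the pentose phosphate entry enzyme *G6pdx*. The median log2 difference was -0.17 over the members and -0.01 over all genes tested. In 15 members the 2 sets did not overlap, 5 above and 10 below, beside 34.0% of all genes tested, 18.1% above and 15.8% below. The count of lower members stood above its background, while that of higher members was near it, and neither comparison was tested.

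**Figure D2:**
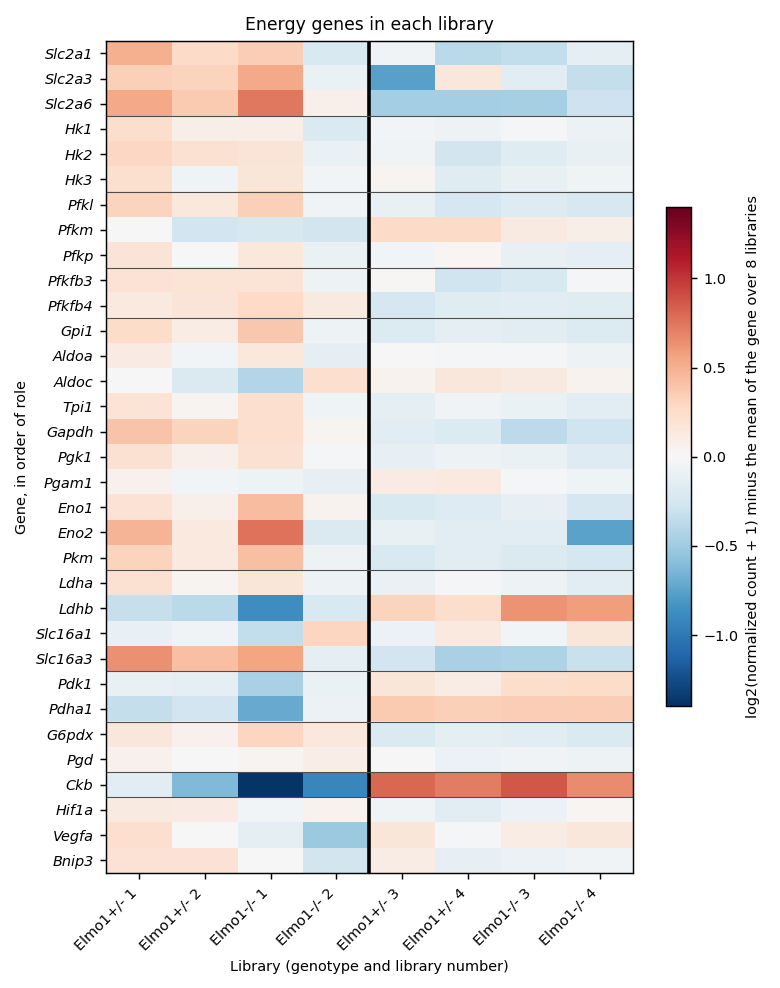
Heat map of log2(normalized count + 1) minus the gene's mean over 8 libraries (color, blue below and red above), with the 33 genes in rows by role and the libraries in columns, numbers 1 and 2 left of the black line and 3 and 4 right of it. *Slc2a6* and *Gapdh* are above their mean left of the line and below it on the right, *Ckb*, *Ldhb* and *Pdha1* the reverse, and *Aldoa* stays near its mean throughout.

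Markers of other properties of the cultures moved with the same split, where 17.0% of all genes tested rose and 15.6% fell. All 12 osteoclast markers rose in libraries 3 and 4, with a median log2 difference of 1.05, and their summed normalized count was 464544 to 709410 in libraries 1 and 2 and 1049490 to 1193430 in libraries 3 and 4. *Ctsk* was 110302 ± 35154 (SD, n = 4) in libraries 1 and 2 and 316338 ± 8797 (SD, n = 4) in libraries 3 and 4. The 4 proliferation markers fell, from sums of 18772 to 21107 to sums of 10498 to 14315. Of 8 macrophage markers 3 fell and 0 rose, with sums of 236610 to 270839 and 198426 to 250690 that overlapped. Of 8 neutrophil markers 7 were tested, 1 fell and 0 rose, and the sums of the list were 13141 to 22561 and 10346 to 13737. Of 6 lymphocyte markers 1 was at 0 in every library, and 1 was tested and fell, with sums of 241 to 417 and 160 to 217. Erythroid markers were near 0, with sums of at most 5.68 and 2 of 6 genes at 0 throughout. Of 6 stromal markers 4 were tested and 0 passed, with sums of 903 to 1282 and 541 to 1270. By genotype limma called 0 markers. The part of these markers in the differences described here was not tested, and in bulk RNA fewer cells of a type and less RNA per cell cannot be told apart.

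Glucose transporters fell in libraries 3 and 4 in 2 of 3 cases, beside 15.6% of all genes tested. *Slc2a1*, the GLUT1 transporter of most growing cells, had counts of 7859.5, 6697, 5389 and 4297 in *Elmo1*+/- libraries 1 to 4, and 7066, 4815, 4384 and 5048 in *Elmo1*-/- libraries 1 to 4, and its log2 difference was -0.45 ± 0.13 (SE, limma adjusted p = 0.0299). Its sets overlapped, because *Elmo1*-/- library 2 was low among the first. *Slc2a6*, a lysosomal transporter of macrophages, had counts of 2323, 2071, 1162 and 1158 in *Elmo1*+/- libraries 1 to 4, and 2679, 1695, 1167 and 1321 in *Elmo1*-/- libraries 1 to 4, so every count in libraries 1 and 2 exceeded every count in libraries 3 and 4. It fell from 2192 ± 415 (SD, n = 4) to 1202 ± 79.4 (SD, n = 4), a log2 difference of -0.85 ± 0.13 (SE, limma adjusted p = 0.00165). The rare *Slc2a3* had counts of 177, 175, 82.2 and 157 in *Elmo1*+/- libraries 1 to 4, and 202, 132, 127 and 111 in *Elmo1*-/- libraries 1 to 4, with overlapping sets and a log2 difference of -0.54 ± 0.20 (SE, limma adjusted p = 0.0631). As a share of the 3 transporters per kb of exon, *Slc2a1* was 72.7% ± 2.27 (SD, n = 4) in libraries 1 and 2 and 77.6% ± 1.93 in libraries 3 and 4, and *Slc2a6* was 26.4% ± 2.22 (SD, n = 4) in libraries 1 and 2 and 21.4% ± 1.66 in libraries 3 and 4. Neither pair of sets overlapped, so the share of *Slc2a6* was lower in every library 3 or 4.

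The hexokinases trap glucose as glucose 6-phosphate, and *Hk3*, the form of myeloid cells, led the family with a mean share of 66.4% per kb over 8 libraries. Its counts were 9389, 7722, 8230.2 and 7114 in *Elmo1*+/- libraries 1 to 4, and 9022, 7809, 7459 and 7714 in *Elmo1*-/- libraries 1 to 4, and its log2 difference was -0.15 ± 0.08 (SE, limma adjusted p = 0.178). *Hk1* had counts of 7296, 6515, 6002 and 5881 in *Elmo1*+/- libraries 1 to 4, and 6605, 5358, 6092 and 5839.9 in *Elmo1*-/- libraries 1 to 4, where *Elmo1*-/- library 2 was the lowest, and a log2 difference of -0.11 ± 0.08 (SE, limma adjusted p = 0.337). Only the inducible *Hk2* passed the test among the 3, with counts of 2746, 2602, 2169.8 and 1883 in *Elmo1*+/- libraries 1 to 4, and 2543, 2102, 2001 and 2098 in *Elmo1*-/- libraries 1 to 4. Its log2 difference was -0.29 ± 0.08 (SE, limma adjusted p = 0.0247), with overlapping sets. The *Hk2* share was 12.0% ± 0.821 (SD, n = 4) in libraries 1 and 2 and 11.0% ± 0.203 in libraries 3 and 4, a small step in which the sets did not overlap. With the longest protein-coding transcript as length, the mean share of *Hk1* was 33.2% in place of 22.1%.

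Phosphofructokinase, the committed step of glycolysis, is made from liver (*Pfkl*), muscle (*Pfkm*) and platelet (*Pfkp*) subunits, of which *Pfkl* fell, *Pfkm* rose and *Pfkp* did not pass the test. *Pfkl* had counts of 5157, 4630.0, 3874 and 3528 in *Elmo1*+/- libraries 1 to 4, and 5254, 4022, 3688 and 3576 in *Elmo1*-/- libraries 1 to 4. All libraries 1 and 2 lay above all libraries 3 and 4, and the log2 difference was -0.37 ± 0.09 (SE, limma adjusted p = 0.00983). *Pfkm* had counts of 751, 628, 906 and 911 in *Elmo1*+/- libraries 1 to 4, and 646, 632, 823 and 797 in *Elmo1*-/- libraries 1 to 4, with every library 3 or 4 above every library 1 or 2 and a log2 difference of 0.37 ± 0.07 (SE, limma adjusted p = 0.00423). *Pfkp* had counts of 4891, 4346, 4221 and 4399.9 in *Elmo1*+/- libraries 1 to 4, and 4797, 4044, 4013 and 3959 in *Elmo1*-/- libraries 1 to 4, overlapping sets and a log2 difference of -0.12 ± 0.07 (SE, limma adjusted p = 0.200). The *Pfkl* share per kb was 57.0% ± 1.55 (SD, n = 4) in libraries 1 and 2 and 49.2% ± 1.64 in libraries 3 and 4, and the *Pfkm* share was 16.0% ± 1.23 (SD, n = 4) in libraries 1 and 2 and 23.0% ± 0.847 in libraries 3 and 4. The sets did not overlap in either share, while that of *Pfkp* lay between 26.7% and 29.1% in all 8 libraries. These shares depend on the length used: with the longest protein-coding transcript in place of all exons, a choice made after seeing the data, the mean shares of *Pfkl*, *Pfkp* and *Pfkm* were 46.1%, 42.9% and 11.0%, against 53.1%, 27.4% and 19.5%.

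The enzymes PFKFB3 and PFKFB4 make fructose 2,6-bisphosphate, the activator of phosphofructokinase. *Pfkfb3* had counts of 3810.2, 3786, 3339 and 2723 in *Elmo1*+/- libraries 1 to 4, and 3772, 3146, 2855 and 3264 in *Elmo1*-/- libraries 1 to 4, and its overlapping sets gave a log2 difference of -0.25 ± 0.09 (SE, limma adjusted p = 0.0492). Its adjusted p was the largest of the 18 calls, and the call was lost under 9 of 19 alternatives. *Pfkfb4* had counts of 1274, 1310.0, 987 and 1026 in *Elmo1*+/- libraries 1 to 4, and 1408, 1264, 1041 and 1030.0 in *Elmo1*-/- libraries 1 to 4. Its sets did not overlap, and its log2 difference was -0.36 ± 0.06 (SE, limma adjusted p = 0.00215). The *Pfkfb3* share of the pair lay between 61.6% and 68.6% with overlapping sets.

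**Figure D3:**
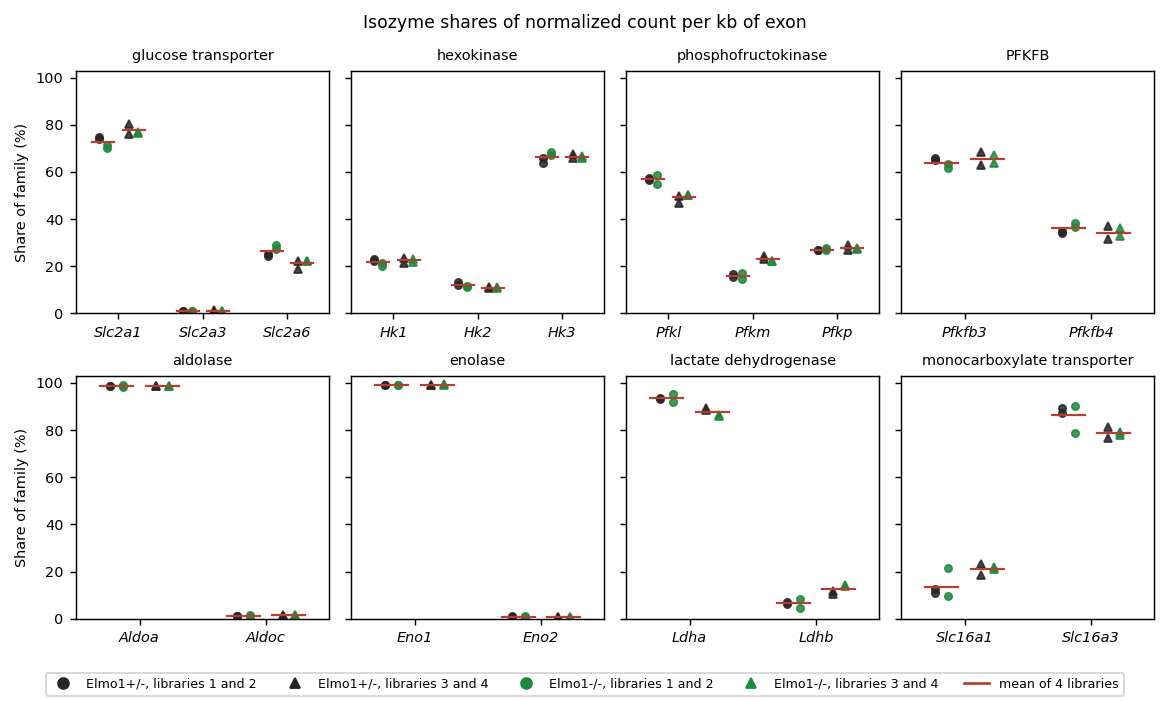
Share of each isozyme in its family (y axis, percent of normalized count per kb of exon) in 8 families, with circles for libraries 1 and 2, triangles for 3 and 4, black for *Elmo1*+/-, green for *Elmo1*-/- and red lines for means of 4 libraries. *Ldhb*, *Pfkm* and *Slc2a1* sit higher and *Ldha*, *Pfkl*, *Slc2a6* and *Hk2* lower in every triangle than in every circle, and the genotypes overlap in every family.

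Of the 10 members for the remaining glycolytic enzymes, *Gpi1* and those from aldolase to *Pkm*, 5 fell and 0 rose. Among all genes tested 15.6% fell and 17.0% rose. All 5 share sequence with other genes, and the levels of *Gpi1*, *Gapdh*, *Pgk1* and *Eno1* are uncertain. *Gpi1*, which isomerizes glucose 6-phosphate, fell from 15290.5 ± 2031 (SD, n = 4) to 12016 ± 210.3 (SD, n = 4), a log2 difference of -0.34 ± 0.09 (SE, limma adjusted p = 0.0192). *Gapdh* had counts of 882, 831, 606 and 585 in *Elmo1*+/- libraries 1 to 4, and 789, 687, 520.0 and 550.0 in *Elmo1*-/- libraries 1 to 4, with the sets apart, and a log2 difference of -0.49 ± 0.07 (SE, limma adjusted p = 0.00127). *Pgk1*, the first ATP-making enzyme of the pathway, had counts of 3567, 3236, 2846 and 2928 in *Elmo1*+/- libraries 1 to 4, and 3569, 3024, 2896 and 2714 in *Elmo1*-/- libraries 1 to 4. Every library 3 or 4 was below every library 1 or 2, and the log2 difference was -0.23 ± 0.07 (SE, limma adjusted p = 0.0263).

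*Pkm*, which makes pyruvate and ATP, had counts of 117782, 104226, 81734 and 85312 in *Elmo1*+/- libraries 1 to 4, and 126573, 89967, 82379.6 and 79967 in *Elmo1*-/- libraries 1 to 4. *Elmo1*-/- library 1 was the highest and libraries 3 and 4 of both genotypes lay close together, and the log2 difference was -0.40 ± 0.10 (SE, limma adjusted p = 0.0157). *Eno1*, the ubiquitous enolase, had counts of 15432, 14083, 11633 and 11848 in *Elmo1*+/- libraries 1 to 4, and 18146, 13861, 12388 and 11382 in *Elmo1*-/- libraries 1 to 4, again with the sets apart, and a log2 difference of -0.37 ± 0.09 (SE, limma adjusted p = 0.0101). *Eno2* had counts of 132, 105, 88.3 and 84.7 in *Elmo1*+/- libraries 1 to 4, and 162, 82.6, 85.1 and 56.0 in *Elmo1*-/- libraries 1 to 4, overlapping sets and a log2 difference of -0.59 ± 0.22 (SE, limma adjusted p = 0.0614). *Eno1* made up 99.0% to 99.4% of enolase per kb in every library.

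The other members of that group of glycolytic enzymes did not pass the test. *Aldoa*, which splits fructose 1,6-bisphosphate, had counts of 75443, 67748, 69689 and 68749 in *Elmo1*+/- libraries 1 to 4, and 77241, 63209.5, 68570.4 and 66369.9 in *Elmo1*-/- libraries 1 to 4 and a log2 difference of -0.05 ± 0.08 (SE, limma adjusted p = 0.663). *Aldoc*, the brain form, had counts of 988, 855, 1019 and 1105 in *Elmo1*+/- libraries 1 to 4, and 742, 1165, 1076 and 1018 in *Elmo1*-/- libraries 1 to 4 and a log2 difference of 0.19 ± 0.12 (SE, limma adjusted p = 0.256). *Aldoa* was 98.4% to 99.2% of aldolase per kb in every library. For *Tpi1*, at a mean of 20899.6 ± 2169 (SD, n = 8), the log2 difference was -0.20 ± 0.08 (SE, limma adjusted p = 0.0644), and for *Pgam1* it was 0.08 ± 0.05 (SE, limma adjusted p = 0.253).

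Of the lactate dehydrogenase subunits *Ldhb* rose and *Ldha* did not pass the test. *Ldha* (ENSMUSG00000063229, chr7:46841475-46855627, GRCm38), the subunit that favors lactate, had counts of 45915, 40548, 37053 and 38873 in *Elmo1*+/- libraries 1 to 4, and 44361, 37581, 37766 and 35556 in *Elmo1*-/- libraries 1 to 4. Its sets overlapped and its log2 difference was -0.17 ± 0.08 (SE, limma adjusted p = 0.107). *Ldhb* (ENSMUSG00000030246, chr6:142490249-142507957), the heart-type subunit that favors pyruvate, had counts of 1479.8, 1422, 2293 and 2192 in *Elmo1*+/- libraries 1 to 4, and 1014, 1598, 2868 and 2769 in *Elmo1*-/- libraries 1 to 4. Every library 3 or 4 exceeded every library 1 or 2, with *Elmo1*-/- library 1 lowest of all. *Ldhb* rose from 1378 ± 254 (SD, n = 4) to 2530.4 ± 337 (SD, n = 4), a ratio of means of 1.84 and a log2 difference of 0.89 ± 0.15 (SE, limma adjusted p = 0.00302). The *Ldhb* share of the pair per kb was 6.52% ± 1.50 (SD, n = 4) in libraries 1 and 2 and 12.5% ± 1.70 in libraries 3 and 4, without overlap.

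Lactate leaves cells through monocarboxylate transporters. *Slc16a3* (MCT4, chr11:120948480-120960868), the exporter of glycolytic cells, had counts of 5449, 4676, 2890.1 and 2537 in *Elmo1*+/- libraries 1 to 4, and 5094, 3158, 2585 and 2799 in *Elmo1*-/- libraries 1 to 4. The sets did not overlap, although *Elmo1*-/- library 2 stood well below the other 3 of its set, and the log2 difference was -0.74 ± 0.14 (SE, limma adjusted p = 0.00575). *Slc16a1* (MCT1), which carries lactate either way, had counts of 544, 565, 551 and 641 in *Elmo1*+/- libraries 1 to 4, and 459, 715, 568 and 654 in *Elmo1*-/- libraries 1 to 4, overlapping sets and a log2 difference of 0.10 ± 0.13 (SE, limma adjusted p = 0.584). The *Slc16a3* share of the pair per kb was 86.4% ± 5.31 (SD, n = 4) in libraries 1 and 2 and 78.8% ± 1.95 in libraries 3 and 4, with *Elmo1*-/- library 2 at 78.6%, among the values of libraries 3 and 4.

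Both members that control the oxidation of pyruvate in the mitochondrion rose, beside 17.0% of all genes tested. *Pdha1*, the catalytic subunit of pyruvate dehydrogenase, had a mean of 4299.8 ± 752 (SD, n = 4) in libraries 1 and 2 and 6865 ± 79.8 (SD, n = 4) in libraries 3 and 4, without overlap and with a log2 difference of 0.69 ± 0.11 (SE, limma adjusted p = 0.00234). *Pdk1*, the HIF-1 target kinase that switches that enzyme off, had counts of 4705, 4589, 5671 and 5415 in *Elmo1*+/- libraries 1 to 4, and 3689, 4730.4, 5989.8 and 6003 in *Elmo1*-/- libraries 1 to 4. Every library 3 or 4 exceeded every library 1 or 2, and the log2 difference was 0.39 ± 0.09 (SE, limma adjusted p = 0.00874). In the pentose phosphate pathway, which supplies NADPH and ribose, *G6pdx* fell from 14782 ± 1024 (SD, n = 4) to 11679 ± 294 (SD, n = 4), a log2 difference of -0.34 ± 0.06 (SE, limma adjusted p = 0.00424) with the sets apart. *Pgd*, the next NADPH-making enzyme, had a mean of 27782 ± 1185 (SD, n = 8) and a log2 difference of -0.10 ± 0.06 (SE, limma adjusted p = 0.228).

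Creatine kinase changed the most of the 33. *Ckb* (ENSMUSG00000001270, chr12:111669361-111672338, minus strand) had counts of 47757, 34482, 92502 and 86884 in *Elmo1*+/- libraries 1 to 4, and 20482, 28030.3, 96670.4 and 84052 in *Elmo1*-/- libraries 1 to 4. Every library 3 or 4 exceeded every library 1 or 2, and within libraries 1 and 2 both *Elmo1*-/- counts were below both *Elmo1*+/- counts. *Ckb* rose from 32688 ± 11561 (SD, n = 4) to 90027 ± 5652 (SD, n = 4), a ratio of means of 2.75 and a log2 difference of 1.53 ± 0.18 (SE, limma adjusted p = 0.00101). It was called under every alternative tried, with log2 differences between 1.14 and 1.91. From the creatine list, *Slc6a8*, the creatine importer, had counts of 5218, 4186, 8471 and 8024 in *Elmo1*+/- libraries 1 to 4, and 3543, 4547, 7380.4 and 7467 in *Elmo1*-/- libraries 1 to 4, and its log2 difference was 0.85 ± 0.09 (SE, limma adjusted p = 0.000615). *Ckmt1*, mitochondrial creatine kinase, had counts of 271, 294, 472 and 527 in *Elmo1*+/- libraries 1 to 4, and 146, 226, 652 and 625 in *Elmo1*-/- libraries 1 to 4 and a log2 difference of 1.31 ± 0.21 (SE, limma adjusted p = 0.00268). In both, as in *Ckb*, libraries 3 and 4 all lay above libraries 1 and 2.

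**Figure D4:**
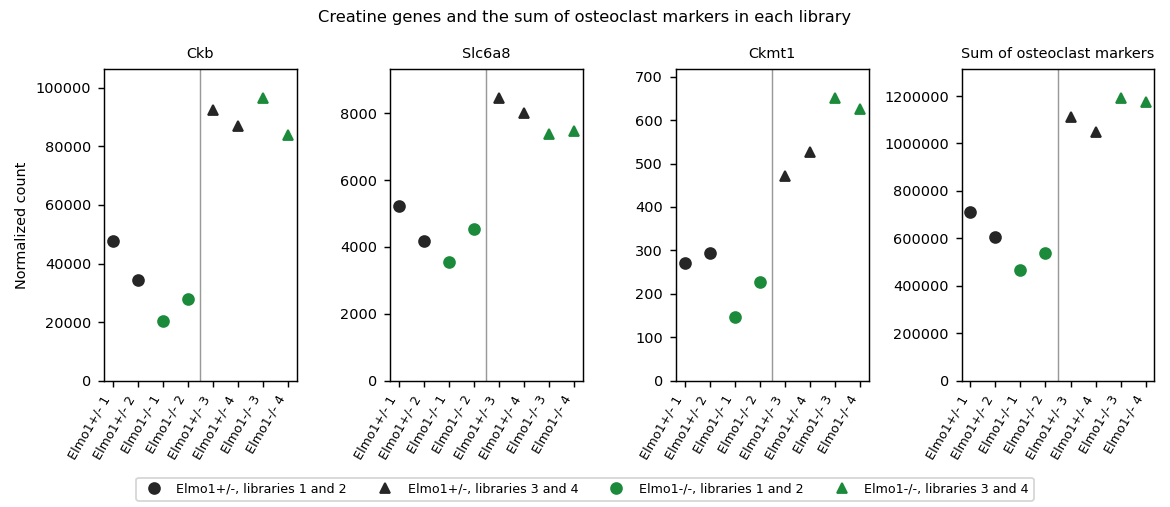
Normalized counts (y axis, from 0) of *Ckb*, *Slc6a8*, *Ckmt1* and the sum of 12 osteoclast markers in each library (x axis), with circles for libraries 1 and 2, triangles for 3 and 4, black for *Elmo1*+/- and green for *Elmo1*-/-. In all 4 panels every triangle is above every circle, and for *Ckb* the circles run from 20482 to 47757 and the triangles from 84052 to 96670.

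Of the 3 members of the HIF pathway 0 passed the test between the sets, beside 32.6% of all genes tested. *Hif1a*, the oxygen-regulated subunit of HIF-1, had counts of 6188, 6151, 5500.0 and 5117 in *Elmo1*+/- libraries 1 to 4, and 5547, 5894, 5377 and 5771 in *Elmo1*-/- libraries 1 to 4. Its sets overlapped and its log2 difference was -0.13 ± 0.06 (SE, limma adjusted p = 0.141). *Vegfa* had counts of 970.3, 826, 926 and 809.9 in *Elmo1*+/- libraries 1 to 4, and 753, 573, 888 and 923 in *Elmo1*-/- libraries 1 to 4, with *Elmo1*-/- library 2 the lowest, and a log2 difference of 0.21 ± 0.13 (SE, limma adjusted p = 0.224). *Bnip3* had counts of 1488, 1492, 1392 and 1193 in *Elmo1*+/- libraries 1 to 4, and 1294, 1081, 1228 and 1253 in *Elmo1*-/- libraries 1 to 4 and a log2 difference of -0.07 ± 0.09 (SE, limma adjusted p = 0.552), again with overlap.

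Whether the genotype difference itself depended on the set was tested as an interaction. By limma 0 of 33 members, and 0 of all 14139 genes (0.0%), passed. At an unadjusted p under 0.05 there were 378 genes and 2 members, *Ckb* with a log2 interaction of 0.77 ± 0.26 (SE) and *Vegfa* with 0.51 ± 0.20 (SE), each with a limma adjusted p of 1.00. The edgeR test called 0 and found 387 genes and 2 members at that level. The share of the leading isozyme passed the test by genotype in 0 of the 8 families. The differences, *Elmo1*-/- minus *Elmo1*+/-, ran from -2.59 percentage points for *Slc2a1* to 1.31 for *Hk3*. An exact permutation test of each family, two-sided, with 70 arrangements, gave p between 0.257 and 0.771 and adjusted p between 0.743 and 0.771, where the smallest possible p was 0.0286. With 8 families adjusted together, a family that reached it alone would have had an adjusted p of 0.229, and 5 families at that p would have been needed to pass, so the test could hardly call a share.

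The calls by number rested unevenly on the libraries. Without *Elmo1*-/- library 2, 25 of 33 members were called, 6 higher and 19 lower, beside 49.1% of genes tested. The 13 lower calls became 7 without *Elmo1*+/- library 1, 7 without *Elmo1*+/- library 3 and 8 without *Elmo1*-/- library 3, while the lower calls among all genes went from 15.6% to 8.78%, 9.65% and 9.46%, and 5 higher members were called in each of these. Among *Elmo1*+/- libraries alone limma called 20 members, 5 higher and 15 lower, beside 30.7% of genes tested, 15.8% higher and 14.8% lower. Among *Elmo1*-/- libraries alone it called 1, *Ckb*, and 76 genes in all (0.538%). The log2 differences of the 18 called members had the same sign in both genotypes, with medians over the 13 lower ones of -0.40 in *Elmo1*+/- and -0.37 in *Elmo1*-/- libraries and over the 5 higher ones of 0.63 and 0.74.

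Several members share sequence with other genes, so their counts depend on how reads with several matches were handled, which is not stated. The share of 75-base windows of protein-coding transcripts, the read length, that recurred in other genes of GENCODE M21 was 67.5% for *Pgk1*, 55.5% for *Gapdh*, 44.3% for *Eno1*, 40.6% for *Pgam1*, 29.3% for *Bnip3*, 13.4% for *Ckb*, 12.6% for *Ldhb*, 9.56% for *Gpi1* and 9.23% for *Pkm*. It was at most 3.11% in the other 24 members. A pair of windows, on GRCm38, shows the case of *Ckb* (exon 8, also in the processed pseudogene *Gm12892*, chr4:122008193-122009338) and of *Gapdh* (exon 4, also in 49 other genes, 46 of them pseudogenes).
Ckb, chr12:111669609-111669683, minus strand: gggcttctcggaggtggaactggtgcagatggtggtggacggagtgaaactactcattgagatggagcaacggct
Gapdh, chr6:125162873-125162947, minus strand: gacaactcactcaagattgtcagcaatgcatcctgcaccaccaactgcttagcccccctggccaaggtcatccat
All 613 coding windows of *Gapdh* that lie within an exon recurred elsewhere, in 121 genes, of which 114 are pseudogenes. The genes sharing windows with *Gapdh* summed to 2.60 to 3.31 times its own count in each library, and *Gapdh* ranked 30 of 33 per kb. *Gm12892* had 0.144 to 0.160 times the count of *Ckb*, from 3273 in *Elmo1*-/- library 1 to 13892 in *Elmo1*-/- library 3, so gene and copy kept nearly 1 ratio in all libraries. For *Pkm* the ratio was 0.187 to 0.207, for *Gpi1* it was 0.455 to 0.489, and for *Pgam1* it was 1.60 to 1.95. The levels of *Gapdh*, *Pgk1*, *Pgam1*, *Eno1*, *Bnip3* and *Gpi1* are therefore uncertain. Exons of *Pdha1* (16.2%, antisense *Map3k15*), *Bnip3* (22.3%), *Pkm* (15.3%), *G6pdx* (13.6%), *Gpi1* (11.5%) and *Pfkm* (10.8%) overlap other genes, and whether counting used strand is not stated.

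**Figure D5:**
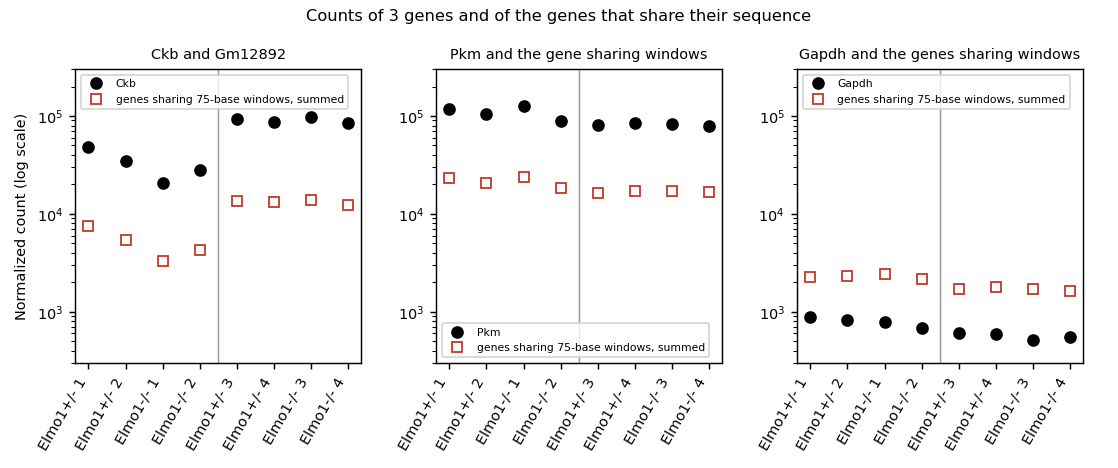
Normalized counts (y axis, log scale) of *Ckb*, *Pkm* and *Gapdh* (filled circles) and of the genes that share 75-base windows with each, summed (open squares), in each library (x axis), with libraries 3 and 4 right of the grey line. *Gm12892* follows *Ckb* at 0.144 to 0.160 of its count, and the genes sharing windows with *Gapdh* lie above *Gapdh* in all 8 libraries.

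Other genes of the same pathways were read from lists of named genes, to be set beside the 17.0% of all genes tested that rose and the 15.6% that fell in libraries 3 and 4. Of 14 tested genes of pyruvate and lactate metabolism 10 rose in libraries 3 and 4 and 1 fell, with a median log2 difference of 0.41. Among them *Ldhd*, which oxidizes D-lactate, had a log2 difference of 1.00 ± 0.26 (SE, limma adjusted p = 0.0171), *Pdhb*, the partner of *Pdha1*, 0.57 ± 0.09 (SE, limma adjusted p = 0.00163), the pyruvate dehydrogenase kinase *Pdk2* 0.54 ± 0.10 (SE, limma adjusted p = 0.00421) and the pyruvate transporter gene *Slc16a7* 0.54 ± 0.11 (SE, limma adjusted p = 0.00599). The gene that fell was the pyruvate dehydrogenase phosphatase *Pdp1*, with -0.24 ± 0.06 (SE, limma adjusted p = 0.0179). A further list held other genes of glycolysis, of transport and of neighboring steps. Of its 12 tested genes 1 rose, *Pfkfb2* with 1.25 ± 0.20 (SE, limma adjusted p = 0.00275). The 2 that fell were transporter genes, *Slc2a9* with -0.37 ± 0.08 (SE, limma adjusted p = 0.00858) and *Slc2a8* with -0.31 ± 0.10 (SE, limma adjusted p = 0.0423). Of 4 creatine genes tested 2 rose and 0 fell.

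In the remaining lists the calls were fewer or mixed. Of 8 pentose phosphate genes 1 fell, *H6pd* with -0.31 ± 0.08 (SE, limma adjusted p = 0.0187), and 0 rose. Of 20 genes of the HIF pathway 5 rose and 4 fell, beside 17.0% and 15.6% of all genes tested. *Bhlhe40*, a transcriptional repressor, rose with a log2 difference of 0.94 ± 0.14 (SE, limma adjusted p = 0.00182), and *Epas1*, which encodes HIF-2 alpha, with 0.49 ± 0.15 (SE, limma adjusted p = 0.0309). *Mxi1* also rose, with 0.32 ± 0.08 (SE, limma adjusted p = 0.0131), and *Bnip3l* with 0.24 ± 0.06 (SE, limma adjusted p = 0.0107). *Ankrd37* fell, with -0.70 ± 0.15 (SE, limma adjusted p = 0.00660), as did the collagen hydroxylase subunit *P4ha2*, with -0.69 ± 0.20 (SE, limma adjusted p = 0.0290), *Ddit4*, with -0.58 ± 0.18 (SE, limma adjusted p = 0.0298), and adrenomedullin, *Adm*, with -0.50 ± 0.17 (SE, limma adjusted p = 0.0408). Among the glycogen genes *Pgm2*, a phosphoglucomutase, rose with 0.53 ± 0.10 (SE, limma adjusted p = 0.00364), and the liver phosphorylase *Pygl* fell, with -0.27 ± 0.05 (SE, limma adjusted p = 0.00554). By genotype limma called 0 genes in each of these 6 lists.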

How the data were processed

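Messenger RNA of 8 cultures, 1 per mouse, was sequenced as 75 bp paired-end reads. The submitters' processing notes name FastQC, STAR, featureCounts and DESeq2, while versions, genome build, strand setting and the handling of reads with several matches are given in no source used here. The authors deposited a normalized signal, that is, reads per gene over a DESeq2 size factor for the library. The deposited table also holds the authors' mean and their own comparison of the genotypes (log2 fold change, its error, a statistic and p-values), which were not used. Groups follow the genotype labels.

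Undoing the size factors gave whole reads for all values, to within 0.01 of a read. Of 46517 identifiers 46005 matched GENCODE M21 (GRCm38), which gave symbols, positions and lengths, and 512 did not. The deposited values were tested with limma 3.58.1 in R 4.3.3 (trend and robust) on log2(normalized count + 1), for genes at 10 or more in 4 or more libraries, and p-values were adjusted over all 14139 by Benjamini-Hochberg, with a threshold of 0.05. Log2 differences are on that scale, while ratios of means are of the normalized counts. The comparison by number held genotype as a term. On whole reads edgeR 4.0.16 (TMM, quasi-likelihood) called 1 gene by genotype and 4664 by number, and DESeq2 1.42.0 called 2 and 4728. Isozyme shares used the union of exons as length. Scripts were tested on simulated data.

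Libraries of the same number and opposite genotype deviated together from their genotype means, with correlations across genes of 0.156 to 0.703 in the 4 pairs. All exceeded 0.1, the limit set for treating the numbers as pairs. Different numbers of the same set gave 0.0259 to 0.691, so these values cannot tell pairs of one number from the split between sets. The main test by genotype and its standard errors held neither the number as a block nor the set as a term. No 2 libraries of a genotype were copies, since a chi-square of their reads per gene lay between 8.00 and 173. Read totals limit the precision of rare genes only, since the least abundant member had at least 54 reads in each library, and such intervals would cover counting error alone.

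The members and lists were chosen with earlier results of these data known. Counts in every library were printed for isozymes and for *Gapdh*, *Pkm*, *Pgk1*, *Ckb*, *Hif1a*, *Vegfa*, *Bnip3* and *Pdk1*. Genotype differences were named for the 6 smallest p, and at most 4 called genes were named per list and direction. Alternatives were other scalings (TMM, equal totals), filters (none, 50), pseudocounts (0.5, 8), tests, blocks, subsets and leaving out each library. Lengths of the longest protein-coding transcript were added after seeing the data. Promoter windows are from RefSeq. Python 3.11.15, pandas 2.3.3 and matplotlib 3.10.9 were used. The count of calls in the glycogen list is not reported here.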

Additional observations from a re-analysis of the deposited data

Results flagged for a closer look

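Each of the 33 genes and the leading share of each of 8 isozyme families was searched, in the 4 libraries of each genotype, for 1 library far from the other 3. Of 82 groups checked 2 held such a library. Chance would give about 1 in 20 groups, or 4.1, if the 4 libraries of a group were alike and the groups independent. Each group joined libraries 1 and 2 with libraries 3 and 4, so a split between these sets can hide such a library. In both flagged groups it was *Elmo1*-/- library 1. Its *Pfkp* count was 4797 normalized counts, against 3959 to 4044 in the other *Elmo1*-/- libraries, a gap of 0.898 of the range. Its *Slc16a3* share of the monocarboxylate transporter pair was 90.2%, against 78.1% to 79.1%, a gap of 0.913 of the range. *Elmo1*-/- library 1 also had the lowest sum of osteoclast markers, 464544 normalized counts.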

How the results depend on the processing

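Between library numbers, among *Elmo1*-/- libraries alone limma called 1 member, 1 higher and 0 lower, beside 76 of all 14139 genes (0.538%). Leaving out each library in turn gave 12 to 25 member calls and 7 to 19 lower ones. Among all 14005 to 14053 genes tested in these fits there were 2861 to 6897 calls, 1232 to 3351 of them lower. Counts by genotype and of the interaction were 0 under every alternative, with the replicate number as a block giving 0 called members and an adjusted p of at least 0.667 for the isozyme shares (4 pairs, too few to pass the threshold), so the pairing changed no call. By genotype 10 of 33 members changed sign in libraries 3 and 4 alone, among them, of the 6 named, *Vegfa* (0.0639) and *Hk1* (0.0056), and 10 without *Elmo1*+/- library 1. By number it turned for *Hk1* (0.0038) and *Bnip3* (0.0686) in *Elmo1*-/- libraries and for *Vegfa* (-0.0476) in *Elmo1*+/- libraries. Leaving out single libraries gave ranges across 0 by number for *Aldoa* (-0.11 to 0.0096), *Slc16a1* (-0.0313 to 0.22) and *Bnip3* (-0.15 to 0.0018), and by genotype for the shares of *Pfkl* (-1.09 to 2.49 points) and *Aldoa* (-0.21 to 0.0492 points). These members were not called, and the cause was not tested. Of the 18 calls by number, *Pfkfb3* was lost under 9 alternatives and *Slc2a1* under 7. *Hk2* and *Pgk1* were lost under 6, *Gpi1* under 5 and *Pkm* under 4. *Ckb* was lost under 0, and the other 11 under 1 each, the *Elmo1*-/- libraries alone. That fit left 2 libraries a side, as did the fit of *Elmo1*+/- libraries alone, which called 20 members. Other scalings moved the median of all genes by at most 0.0363 on the log2 scale. Of the values for single genes and shares, 767 kept direction and side of the threshold, 48 lost a call, 16 gained a call and 12 changed sign.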
